A study of Mus musculus with 36 samples.

Results

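The clustered protocadherins are the 58 genes, of 54842 in the deposited count table, whose symbols carry the alpha, beta or gamma array names (Pcdha, Pcdhac, Pcdhb, Pcdhga, Pcdhgb and Pcdhgc, each with a number). They were matched by symbol. The cells were mouse embryonic stem cells, grown without serum in MEK and GSK3β inhibitors and leukaemia inhibitory factor, and every label gives doxycycline at 2 µg/ml for 2 days. Cells transfected with LiTEC, a construct named in a study of light-directed targeting to condensates, were compared with wild-type (WT) cells. Each genotype was sampled 0, 1 and 4 h after 30 min on a blue LED panel (lit) or without it (dark), which makes 12 groups of 3 libraries and 36 libraries in all. The labels do not give the promoter of the construct, whether the transfected cells are 1 clone, or whether the 3 replicates of a group are separate cultures. If they are not, the p-values below reflect technical spread alone. Replicate 1 of each group is labelled batch 1, and replicates 2 and 3 are labelled batch 2.

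Clustered protocadherins are cadherin-like cell-surface proteins that bind copies of themselves on neighbouring cells, and in neurons their combinations let a cell tell its own branches from those of others. Each variable exon of the alpha and gamma arrays has its own promoter and is spliced to constant exons shared within the array, while beta genes have no constant exons. In neurons most promoters are chosen at random in each cell, with CTCF and cohesin looping an enhancer to the chosen promoter, and the C-type isoforms (Pcdhac1, Pcdhac2, Pcdhgc3, Pcdhgc4 and Pcdhgc5) are used more uniformly. In early embryonic cells the arrays are targets of silencing by DNA methylation and by the chromatin protein SMCHD1.

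The RNA carried the markers of naive stem cells. All 9 were tested, and their summed level was 3070 to 4170 CPM (counts scaled to library size) over 18 LiTEC libraries and 2660 to 4250 CPM over 18 WT libraries. In dark LiTEC cells against dark WT cells 2 of the 9 were called higher (Zfp42 at 0.30 ± 0.03 and Tfcp2l1 at 0.34 ± 0.02, as log2 fold change) and 6 lower, among them Pou5f1 at -0.20 ± 0.06 and Nanog at -0.22 ± 0.06. Of all tested genes, 47.6% were called in either direction in this comparison. Of the other lists, 3 of 7 neural progenitor markers passed the expression filter (summed level 42.5 to 67.1 CPM in LiTEC cells, 30.7 to 57.2 CPM in WT cells, most of it Nes), 7 of 8 neuron markers (62.3 to 89.8 CPM in LiTEC, 90.7 to 107 CPM in WT), 5 of 7 fibroblast markers (3.41 to 8.28 CPM in LiTEC, 5.21 to 10.8 CPM in WT), 5 of 6 primitive endoderm markers (8.48 to 16.5 CPM in LiTEC, 5.84 to 11.4 CPM in WT) and 5 of 5 formative markers (442 to 688 CPM in LiTEC, 271 to 594 CPM in WT). Dcn was at 0 in every LiTEC library and Lum at 0 in every WT library. Libraries held 11132970 to 21842256 counts. A ribosomal RNA locus, Gm26917, took 26.1% of the counts of replicate 3 of dark WT cells at 4 h and 16.3% of replicate 1 of lit LiTEC cells at 0 h, against a median of 9.87%, and results without these libraries are given below.

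The 3 arrays lie in a row on chromosome 18 of GRCm38, on the plus strand: alpha at 36930184 to 37187661, beta at 37264938 to 37524479 and gamma at 37661793 to 37841873. They hold 14, 22 and 22 of the genes. The symbol Pcdha11 stands on 2 identifiers (ENSMUSG00000007440.10 and ENSMUSG00000102206.5), and both were kept.

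Stem cells of both genotypes carried RNA of the gamma array and almost none of the others. Over all 36 libraries the gamma genes took 54503 counts, or 98.5% of those of the family, the beta genes 520 counts (0.94%) and the alpha genes 299 counts (0.54%). Per kilobase of exon unique to a gene, this is 817 counts for gamma, 5.67 for beta and 8.58 for alpha. No gene of the family was at 0 in all 36 libraries.

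In single libraries, the summed alpha counts ran from 2 to 15 with a median of 8, the beta counts from 4 to 32 with a median of 14.5, and the gamma counts from 1007 to 2242 with a median of 1411. The ranges of gamma and of the other arrays lie far apart. The lowest gamma gene, Pcdhga6, had 315 counts in all, or 121 per kb of unique exon, above every alpha and beta gene.

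The highest alpha genes per kilobase of unique exon were Pcdha12 (60 counts), the C-type Pcdhac2 (65 counts) and Pcdha5 (29 counts), at 24.2, 21.5 and 12.4 counts per kb over 36 libraries. The highest beta gene was Pcdhb22, at 22.9 counts per kb; its 141 counts were spread over all 36 libraries, with a median of 4 and at most 8 in a library. Pcdhb14 (9.2 counts per kb) and Pcdhb8 (6.6 counts per kb) came next. Pcdhb22, the last gene of the beta array, was the only alpha or beta gene seen in every library.

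At the low end, Pcdha4, Pcdhb9, Pcdhb1 and Pcdhb5 had 2, 1, 3 and 3 counts over 36 libraries, and no alpha or beta gene exceeded 8 counts in any library. None of the 36 alpha and beta genes passed the expression filter, so none was tested in the fits below. The remaining untested alpha genes, Pcdha1, Pcdha2, Pcdha3, Pcdha6, Pcdha7, Pcdha8, Pcdha9, Pcdha11 (both identifiers) and Pcdhac1, had 4 to 33 counts. The remaining beta genes, Pcdhb2 to Pcdhb4, Pcdhb6, Pcdhb7, Pcdhb10 to Pcdhb13 and Pcdhb15 to Pcdhb21, had 4 to 36 counts.

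Sequence shared between family members limits such counts to different degrees. Of 50-base windows of their transcripts, 88.0 to 100.0% occurred in no other gene for the beta genes, 34.7 to 68.1% for the gamma genes and 9.9 to 56.0% for the alpha genes. The part of shared sequence in the low alpha and beta counts was not tested. Pcdha4 had 494 bases of unique exon, since the predicted gene Gm42416 covers most of its variable exon. Genes that share the gamma constant exons (Gm42416, Gm37013, Gm37388 and Gm38182) had 0 counts in all 36 libraries. The deposited counts of gamma genes thus come from exon that belongs to 1 gene of the plus strand, and levels per kb below use that length. Exons of genes on the opposite strand, which overlap some gamma genes, were not taken out of it.

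**Figure D1:**
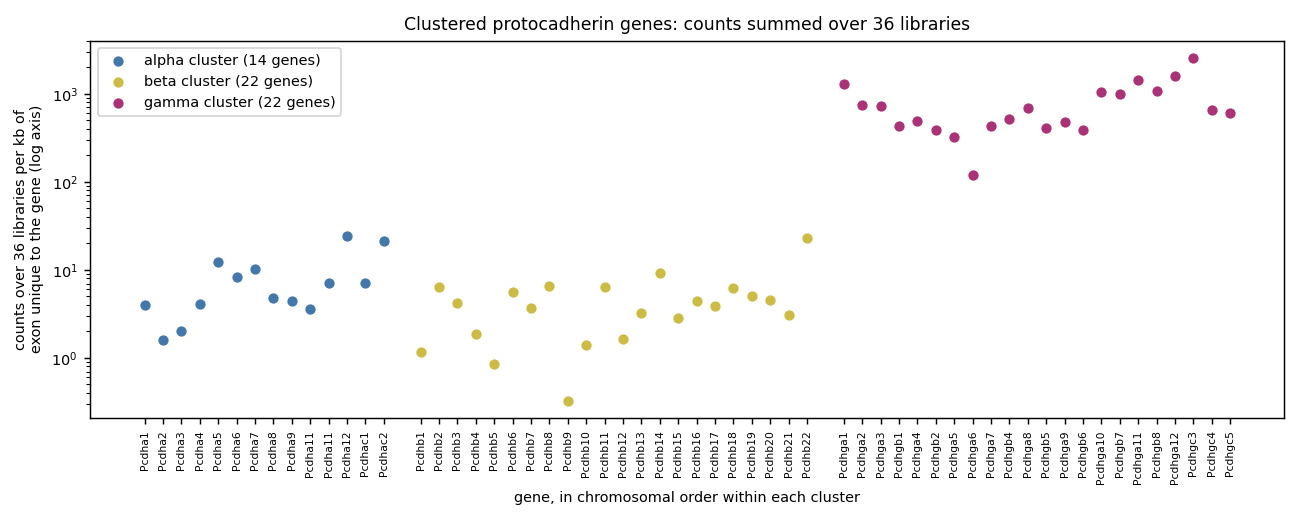
Counts summed over 36 libraries per kb of exon unique to the gene (log axis) for each of the 58 genes, in chromosomal order within the alpha, beta and gamma arrays; each point is 1 gene. All 22 gamma genes lie above every alpha and beta gene, and the lowest gamma point is Pcdhga6.

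Summed over its genes, the alpha array stood at 0.454 ± 0.214 CPM in LiTEC cells and 0.535 ± 0.181 CPM in WT cells (SD, n = 18 each). The beta array stood at 0.698 ± 0.293 CPM in LiTEC cells and 1.03 ± 0.314 CPM in WT cells, with 202 and 318 counts behind these values. The libraries of both genotypes overlap, from 0.248 to 1.29 CPM in LiTEC and from 0.435 to 1.79 CPM in WT for beta, and the sums were not tested. In a single library 3 counts correspond to 0.137 to 0.269 CPM.

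Within the gamma array the highest levels per kb lay in a run of genes from Pcdhga10 to Pcdhgc3, before the last C-type exons, and in Pcdhga1. Pcdhgc3, a C-type isoform, was highest at 4.24 ± 0.579 CPM per kb (SD, n = 36), followed by Pcdhga12 at 2.66 ± 0.536, Pcdhga11 at 2.40 ± 0.375, Pcdhga1 at 2.16 ± 0.421, Pcdhgb8 at 1.80 ± 0.375, Pcdhga10 at 1.75 ± 0.526 and Pcdhgb7 at 1.63 ± 0.377 CPM per kb. Of these 7, Pcdhga1 is the first gene of the array and the other 6 are the consecutive genes from Pcdhga10 to Pcdhgc3. The order of the 7 was the same when the whole exon length was used. Every one of the 7 but Pcdhgb8 overlaps exons of a gene on the opposite strand, described below.

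The other C-type isoforms, the last genes of the array, were in the middle of the order, Pcdhgc4 at 1.09 ± 0.285 and Pcdhgc5 at 1.02 ± 0.255 CPM per kb. The genes between Pcdhga2 and Pcdhgb6 ran from 0.201 to 1.24 CPM per kb, and the lowest of the array was Pcdhga6 at 0.201 ± 0.111 CPM per kb, the only gamma gene with a library at 0. Adjacent levels in this order overlap between libraries, except that Pcdhgc3, at 3.25 to 5.88 CPM per kb, overlapped little with Pcdhga12 at 1.77 to 3.69 CPM per kb.

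**Figure D2:**
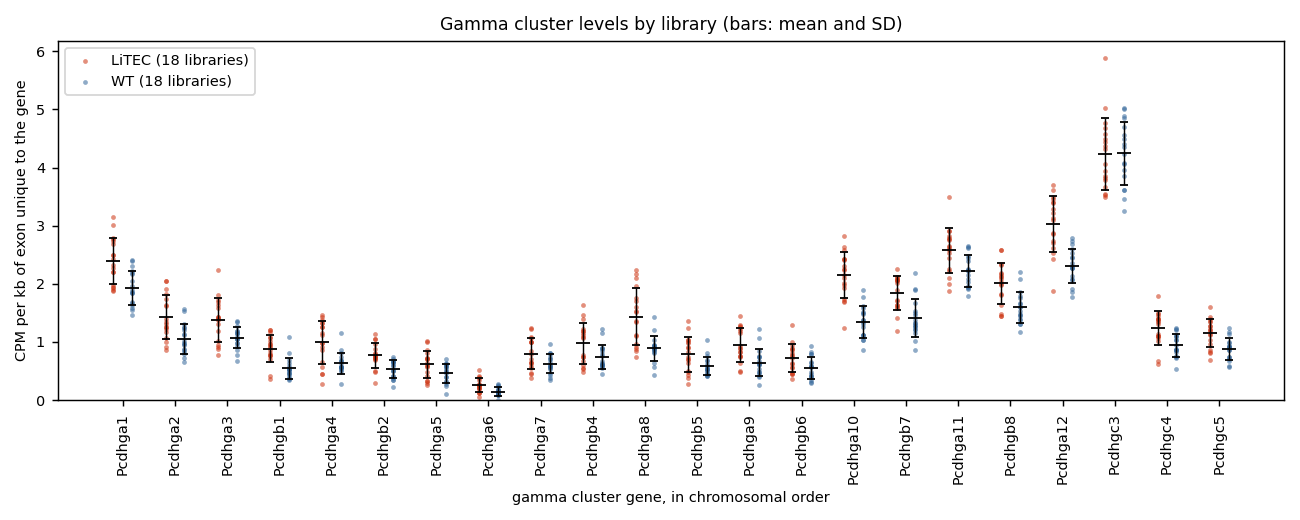
Level in CPM per kb of unique exon of each gamma gene, in chromosomal order, for 18 LiTEC libraries (left of each pair) and 18 WT libraries (right); points are libraries and bars are the mean and SD. Pcdhgc3 is highest in both genotypes, the genes from Pcdhga10 to Pcdhgc3 and Pcdhga1 stand above the middle of the array, and Pcdhga6 is lowest.

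The first comparison asks how LiTEC cells differ from WT cells without light. As the mean over 0, 1 and 4 h, RNA of the gamma array was higher in dark LiTEC cells. Of its 22 genes 17 were called higher and 0 lower, and all 22 fold changes were above 0. At single times, 2 called genes had lower means in LiTEC cells. Pcdhga1 at 0 h was at 6.57 CPM in LiTEC and 6.92 CPM in WT, and Pcdhga4 at 4 h at 0.761 CPM in LiTEC and 0.942 CPM in WT. The members' median log2 fold change was 0.53, against 0.00 for all 18193 tested genes. In the same comparison 47.6% of tested genes were called in either direction and 23.9% were called higher, so 17 of 22 (77.3%) stands above this background. Summed over the array, dark LiTEC libraries ran from 83.1 to 134 CPM with a median of 104, and dark WT libraries from 69.5 to 94.4 CPM with a median of 77.1. The sums of the groups overlap at their edge. A bulk level does not tell fewer cells with the RNA from less RNA per cell.

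Pcdhga12 (ENSMUSG00000102428.1, chromosome 18, 37765580 to 37841873), the A-type gene next to the C-type exons, was at 11.9, 14.1 and 16.4 CPM (lowest, median and highest of 9 libraries) in dark LiTEC cells and at 8.04, 9.71 and 11.2 CPM in dark WT cells. It was the only gamma gene whose 9 LiTEC and 9 WT dark libraries did not overlap; 4.23% of all tested genes were apart in this way with LiTEC higher. Its log2 fold change was 0.53 ± 0.09 (SE; edgeR quasi-likelihood test, Benjamini-Hochberg adjusted p = 5.31e-06).

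Pcdhga10 (ENSMUSG00000102222.1, chromosome 18, 37746993 to 37841873) was at 3.25, 6.04 and 7.37 CPM in dark LiTEC cells and at 2.70, 2.92 and 4.96 CPM in dark WT cells. All 9 LiTEC libraries were above the WT median, with overlap of the groups. Its log2 fold change of 0.76 ± 0.12 (edgeR adjusted p = 4.79e-06) had the smallest p of the family. Pcdhga8 followed with 1.86, 4.01 and 5.61 CPM in dark LiTEC cells and 1.60, 2.25 and 2.38 CPM in dark WT cells, a log2 fold change of 0.75 ± 0.13 (edgeR adjusted p = 1.45e-05). Its LiTEC libraries were spread more widely than its WT libraries, and 7 of 9 were above the WT median. The genotypes were close in batch 1, with means of 2.27 CPM in LiTEC and 2.04 CPM in WT. In batch 2 the means were 4.52 CPM in LiTEC and 2.23 CPM in WT.

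The C-type genes did not move together. Pcdhgc5 (ENSMUSG00000102543.5) was at 5.17, 5.86 and 7.36 CPM in dark LiTEC cells and at 2.62, 3.99 and 5.21 CPM in dark WT cells, a log2 fold change of 0.66 ± 0.12 (edgeR adjusted p = 1.99e-05), and the groups overlap at 1 WT library. Pcdhgc4 had a log2 fold change of 0.53 ± 0.13 (edgeR adjusted p = 0.00107), with 3.53, 4.82 and 6.25 CPM in dark LiTEC cells and 2.50, 3.00 and 4.33 CPM in dark WT cells. Pcdhgc3 (ENSMUSG00000102918.1), the highest gamma gene, was at 12.8, 14.8 and 19.9 CPM in dark LiTEC cells and at 11.0, 14.3 and 16.9 CPM in dark WT cells. Its log2 fold change was 0.09 ± 0.07, with a 95% interval of -0.06 to 0.24 (edgeR adjusted p = 0.317). The ranges overlap, with 3 of 9 WT libraries below every LiTEC library.

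All 7 B-type genes were called higher in dark LiTEC cells. Their log2 fold changes were 0.66 ± 0.15 for Pcdhgb1, 0.59 ± 0.16 for Pcdhgb4, 0.57 ± 0.15 for Pcdhgb5, 0.50 ± 0.18 for Pcdhgb6, 0.49 ± 0.19 for Pcdhgb2, 0.48 ± 0.11 for Pcdhgb8 and 0.44 ± 0.12 for Pcdhgb7, with edgeR adjusted p from 0.000396 for Pcdhgb8 to 0.0343 for Pcdhgb2. Their libraries overlap between genotypes: Pcdhgb1, for example, was at 0.930, 2.42 and 3.17 CPM in dark LiTEC cells and at 0.971, 1.40 and 2.12 CPM in dark WT cells.

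Of the 12 A-type genes 8 were called higher. Besides Pcdhga8, Pcdhga10 and Pcdhga12 these were Pcdhga9 (0.64 ± 0.16), Pcdhga4 (0.57 ± 0.18), Pcdhga2 (0.56 ± 0.14), Pcdhga11 (0.25 ± 0.10) and Pcdhga1 (0.24 ± 0.09), all as log2 fold changes with edgeR adjusted p from 0.00125 for Pcdhga9 to 0.0369 for Pcdhga11. Pcdhga1 and Pcdhga11 had the smallest called changes of the array. The uncalled A-type genes were Pcdhga6 at 0.77 ± 0.34 (edgeR adjusted p = 0.0655), Pcdhga3 at 0.30 ± 0.14 (adjusted p = 0.0691), Pcdhga5 at 0.46 ± 0.24 (adjusted p = 0.122) and Pcdhga7 at 0.31 ± 0.17 (adjusted p = 0.13). Pcdhga6 and Pcdhga5 are the genes with fewest counts per kb, and their intervals are wide, from 0.05 to 1.48 for Pcdhga6. With a replicate block in place of the batch term, Pcdhga6 and Pcdhga7 were also called higher.

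The unequal changes show as shares of the array. Pcdhgc3 took 14.2 ± 1.54% of gamma counts in LiTEC cells and 18.1 ± 2.02% in WT cells (SD, n = 18 each), while Pcdhga10 took 5.57 ± 0.807% in LiTEC and 4.41 ± 0.597% in WT, and Pcdhga8 3.49 ± 0.831% in LiTEC and 2.78 ± 0.531% in WT. Pcdhga12 took 13.6 ± 1.48% in LiTEC and 13.2 ± 1.51% in WT. Shares were not tested.

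The difference in the dark was seen in both batches. On the scale of log2(CPM + 0.5), 21 of 22 gamma genes were higher in LiTEC within batch 1, with a median of 0.28, and 22 of 22 within batch 2, with a median of 0.48. All 17 called genes were above 0 in both batches, at 0.11 to 0.58 in batch 1 and 0.20 to 0.85 in batch 2. Some differed little in batch 1, such as Pcdhga8 (0.12, against 0.85 in batch 2) and Pcdhgb4 (0.11, against 0.685 in batch 2). The fit that called the 17 genes used the libraries of both batches. Their signs are thus not a separate check. Some markers were called between genotypes too, with members of a list going both ways. In the same comparison 47.6% of all tested genes were called in either direction and 23.9% were called higher. Of 7 tested neuron markers 4 were called lower in dark LiTEC cells (Tubb3 at -0.45, Neurod1 at -0.29, Elavl3 at -0.33 and Snap25 at -1.72, as log2 fold change) and 1 higher (Syt1 at 1.08), and of 5 formative markers 3 were called higher (Dnmt3a at 0.95, Otx2 at 0.78 and Dnmt3b at 0.28) and 2 lower (Fgf5 at -2.18 and Pou3f1 at -1.20). Of 5 tested primitive endoderm markers 4 were called higher and 1 lower, of 5 fibroblast markers 1 higher and 3 lower, and of 3 neural progenitor markers 1 higher and 1 lower. The part of these markers in the gamma difference was not tested. Without the WT library rich in Gm26917, 16 genes were called. Leaving out each of 18 libraries in turn gave 14 to 18 called genes, and 13 genes were called in every one of these fits and in the 7 other settings tried: Pcdhga2, Pcdhga4, Pcdhga8, Pcdhga9, Pcdhga10, Pcdhga12, Pcdhgb1, Pcdhgb4, Pcdhgb5, Pcdhgb7, Pcdhgb8, Pcdhgc4 and Pcdhgc5. The remaining calls were less stable. Pcdhga11 kept its call in 6 of the 18 fits, Pcdhgb2 in 9, Pcdhgb6 in 14 and Pcdhga1 in 16. Of the 7 other settings, Pcdhga1 was called in 4, Pcdhga11 in 5, Pcdhgb2 in 6 and Pcdhgb6 in 7.

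After light, again as the mean over the times, 10 of 22 gamma genes were called higher in LiTEC than in WT cells and 0 lower. Of the fold changes 21 were above 0, and their median was 0.33. In this comparison 43.4% of all tested genes were called in either direction and 22.2% were called higher. The members' 45.5% is near the share called in either direction, although all their calls are in the higher direction. Summed over the array, lit LiTEC libraries ran from 73.4 to 123 CPM with a median of 99.3, and lit WT libraries from 71.4 to 102 CPM with a median of 84.8, and they overlap over most of their range.

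Pcdhga10 again had the smallest p, with 4.43, 5.61 and 6.35 CPM in lit LiTEC cells and 2.24, 3.58 and 4.61 CPM in lit WT cells, a log2 fold change of 0.59 ± 0.12 (edgeR adjusted p = 0.000193). Its groups overlap slightly, and all 9 lit LiTEC libraries were above the WT median. The other called log2 fold changes were 0.73 ± 0.15 for Pcdhgb1, 0.61 ± 0.17 for Pcdhga4, 0.60 ± 0.13 for Pcdhga8, 0.60 ± 0.20 for Pcdhgb2, 0.51 ± 0.16 for Pcdhga9, 0.39 ± 0.09 for Pcdhga1, 0.36 ± 0.14 for Pcdhga3, 0.34 ± 0.12 for Pcdhgb7 and 0.24 ± 0.09 for Pcdhga12, with edgeR adjusted p from 0.000206 for Pcdhgb1 to 0.0325 for Pcdhga3. By type, 7 of 12 A-type, 3 of 7 B-type and 0 of 3 C-type genes were called. No gamma gene had lit LiTEC and lit WT libraries fully apart, whereas 4.07% of all tested genes did with LiTEC higher.

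The genes called in both the dark and the lit comparison numbered 9, those in the dark alone 8 (Pcdhga2, Pcdhga11, Pcdhgb4, Pcdhgb5, Pcdhgb6, Pcdhgb8, Pcdhgc4 and Pcdhgc5) and those after light alone 1 (Pcdhga3). The change of the genotype difference with light was tested itself, and 0 members were called (edgeR, adjusted p below 0.05; 0.0% of all genes were called, and 0 members but 1 gene by DESeq2). At an unadjusted p below 0.05 there were 2 members and 1060 genes. The smallest p was that of Pcdhgc5, whose genotype difference was lower after light by a log2 change of -0.55 ± 0.17 (edgeR adjusted p = 0.845). After light its level was 3.16, 4.47 and 6.30 CPM in LiTEC cells and 3.12, 4.23 and 5.70 CPM in WT cells. Pcdhgc3 had a log2 fold change of -0.09 ± 0.07 after light (95% interval -0.23 to 0.06), as near 0 as in the dark.

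Within batches, 18 of 22 gamma genes were higher in lit LiTEC cells in batch 1 (median 0.14 on the log2(CPM + 0.5) scale) and 21 of 22 in batch 2 (median 0.36). The 10 called genes were above 0 in both, but they were called by a fit that used the libraries of both. Without the LiTEC library rich in Gm26917, 13 genes were called after light. Leaving out each of 18 libraries in turn gave 7 to 13 calls, and Pcdhga1, Pcdhga8, Pcdhga9, Pcdhga10 and Pcdhgb1 were called in all of these fits and in the 7 other settings. Pcdhga3 kept its call in 10 of the 18 fits, Pcdhgb7 in 15, Pcdhga12 in 16, Pcdhga4 in 17 and Pcdhgb2 in 18.

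**Figure D3:**
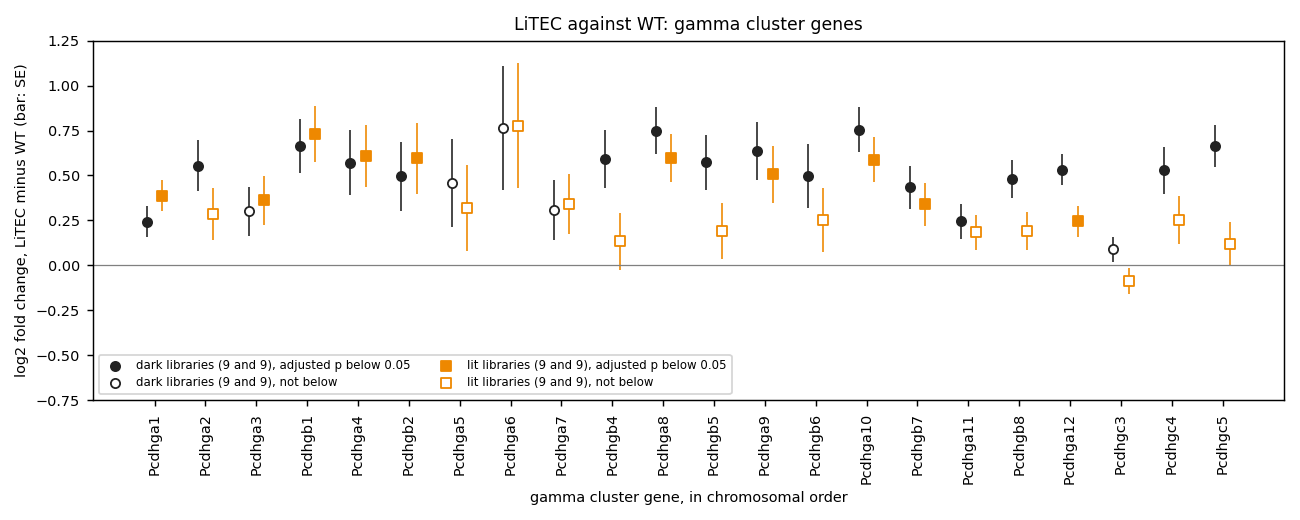
Log2 fold change of LiTEC over WT with its SE for the 22 gamma genes in chromosomal order, in dark libraries (circles) and lit libraries (squares); filled symbols have an edgeR adjusted p below 0.05. All 22 dark values are above 0 and 17 are filled; 21 lit values are above 0 and 10 are filled; Pcdhgc3 lies nearest 0 in the dark and is the only gene below 0 after light.

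Within and beside the arrays, 6 genes outside the family were tested, and 3 were called higher in dark LiTEC cells and 0 lower: the antisense Gm26672 and the lincRNA 3222401L13Rik, described below, and Gm8242, a processed pseudogene between Taf7 and the gamma array. Gm8242 was at 0.716 ± 0.257 CPM in dark LiTEC cells and 0.421 ± 0.216 CPM in dark WT cells (SD, n = 9 each), a log2 fold change of 0.79 ± 0.24 (edgeR adjusted p = 0.00779), and at 0.61 ± 0.27 after light (edgeR adjusted p = 0.0635); as a pseudogene, it may share reads with its parent gene. The other 3 were uncalled. Taf7, a gene of the general transcription machinery that lies between the beta and gamma arrays, was at 113 ± 7.09 CPM in dark LiTEC cells and 111 ± 9.55 CPM in dark WT cells, a log2 fold change of 0.02 ± 0.04 (edgeR adjusted p = 0.684). Diaph1, an actin nucleator beyond the gamma array, had a log2 fold change of -0.06 ± 0.03 (adjusted p = 0.142), and the carrier gene Slc25a2, 0.40 ± 0.22 (adjusted p = 0.14). Pcdh1, a nonclustered protocadherin of the same region, had 0.04 ± 0.12 (adjusted p = 0.829). Over the wider neighbourhood, 22 of 25 listed genes were tested, and 3 were called higher (Arap3 at 0.99, Tmco6 at 0.32 and Ndfip1 at 0.17) and 7 lower in dark LiTEC cells, among them Zmat2 at -0.26, Slc35a4 at -0.22 and Hdac3 at -0.21; after light 4 were called higher and 3 lower. Of 392 other tested genes on chromosome 18, 22.4% were called higher in the dark comparison, with a median log2 fold change of -0.01. Of all tested genes, 23.9% were called higher and 47.6% in either direction in the dark, and 43.4% in either direction after light.

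Members were also read against genes of like level. Of 8345 other tested genes within the members' range of mean CPM, 24.2% were called higher in dark LiTEC cells and 20.3% in lit LiTEC cells, with medians of 0.06 and 0.02. The corresponding shares of the 22 gamma genes were 77.3% and 45.5%.

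Transcripts from the opposite strand bear on some of these counts. Gm26672, annotated on the minus strand, overlaps exons of Pcdhga10, Pcdhgb7, Pcdhga11 and Pcdhga12. It was at 3.37 ± 0.574 CPM in dark LiTEC cells and 1.54 ± 0.442 CPM in dark WT cells (SD, n = 9 each), a log2 fold change of 1.15 ± 0.15 (edgeR adjusted p = 1.48e-07), and at 0.76 ± 0.15 after light. The kit keeps strand, but the strand setting of the counting is not given in the sources used here, so reads of Gm26672 and of these 4 genes may not be separated. Gm37118 over Pcdhga1, Gm37165 over Pcdhga7 and Pcdhga8, and BC037039 over Pcdhgc3 had 7, 10 and 57 counts over 36 libraries. The lincRNA 3222401L13Rik had a log2 fold change of 0.27 ± 0.09 in the dark (adjusted p = 0.0158) and -0.14 ± 0.09 after light (adjusted p = 0.242).

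Among genes known to shape or silence these arrays, calls were in both directions. Of 34 listed genes of chromatin architecture and silencing, all tested, 10 were called higher and 11 lower in dark LiTEC cells, where 47.6% of all tested genes were called, and 13 were not called. After light 10 were called higher and 11 lower, where 43.4% of all tested genes were called. The de novo DNA methyltransferase Dnmt3a was at 165 CPM in dark LiTEC cells and 87.4 CPM in dark WT cells, a log2 fold change of 0.95 ± 0.06 (edgeR adjusted p = 5.8e-15), and Dnmt3b rose by 0.28 ± 0.07 (adjusted p = 0.000709). Rest, a repressor of neuronal genes, had a log2 fold change of 0.69 ± 0.05, Smchd1 0.27 ± 0.04 (adjusted p = 4.22e-07) and Ctcf 0.17 ± 0.03 (adjusted p = 9.13e-06). The cohesin release factor Wapl had -0.26 ± 0.03, the methylcytosine oxidase Tet2 -0.52 ± 0.05 and Uhrf1, which recruits the maintenance methyltransferase, -0.29 ± 0.04.

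Other cadherins did not follow a common direction. For the counts of these lists, 47.6% of all tested genes were called in either direction in the dark comparison and 43.4% in the lit comparison. Of 13 listed nonclustered protocadherin genes 7 were tested, and in dark LiTEC cells Pcdh19 was called higher (0.40 ± 0.09) and Pcdh18 (-2.07 ± 0.41), Pcdh8 (-1.61 ± 0.54) and Cdhr1 (-0.25 ± 0.09) lower; after light 1 was called higher and 2 lower. Of the large and seven-pass cadherins 8 were tested, with 4 higher in the dark (Celsr1 at 0.87, Fat1 at 0.69, Celsr3 at 0.33 and Celsr2 at 0.30) and 2 lower (Fat2 at -1.38 and Fat4 at -1.20), and 4 higher and 3 lower after light. Among 10 tested classical cadherins and catenins, 6 were called higher and 1 lower in the dark and 5 higher and 2 lower after light. Cdh3, P-cadherin, was at 243 CPM in dark LiTEC cells and 31.7 CPM in dark WT cells, a log2 fold change of 2.97 ± 0.09 (edgeR adjusted p = 9.3e-24), Cdh1, E-cadherin, had 0.63 ± 0.06 and Cdh2, N-cadherin, -0.68 ± 0.08. Of 17 tested intracellular partners and proteases of the family 4 were called higher and 3 lower in the dark, with Axin1 at -0.37, Brk1 at -0.36 and Fyn at 0.20, and 2 higher and 2 lower after light.

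The second comparison asks what 30 min of blue light did within a genotype. No gamma gene was called at any time. In LiTEC cells 0 of 22 were called at 0 h (0.934% of all tested genes were), 0 at 1 h (0.115%) and 0 at 4 h (0.011%), with 2, 0 and 0 members at an unadjusted p below 0.05. In WT cells 0 were called at 0 h (2.86% of all genes), 0 at 1 h (0.286%) and 0 at 4 h (0.0%), again with 2, 0 and 0 members at an unadjusted p below 0.05. DESeq2 also called 0 members in each of these 6 comparisons. In WT cells at 4 h edgeR called 0 genes of the whole table, 1484 had an unadjusted p below 0.05, and DESeq2 called 18.

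Fold changes in LiTEC cells were above 0 for 2 of 22 members at 0 h (median -0.17), 6 at 1 h (median -0.09) and 10 at 4 h (median -0.02). In WT cells they were above 0 for 10 members at 0 h (median -0.04), 14 at 1 h (median 0.05) and 14 at 4 h (median 0.07). The median of all tested genes lay between -0.01 and 0.01 in these 6 comparisons. Most members thus had lower values in lit than in dark LiTEC libraries at 0 and 1 h, with no member called. The members were read from the same 3 libraries a group, so their signs are not independent. Summed over the array at 0 h, replicates 1 to 3 were at 73.4, 91.0 and 117 CPM lit and 90.6, 106 and 116 CPM dark. At 1 h they were at 99.3, 114 and 123 CPM lit and 104, 118 and 134 CPM dark. Replicate 1 of the lit group at 0 h is the library rich in Gm26917.

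The intervals show what size of change these libraries could hold. For Pcdhgc3, the most deeply counted gene, the 95% interval of lit minus dark in LiTEC cells was -0.33 to 0.19 at 0 h, -0.45 to 0.05 at 1 h and -0.29 to 0.22 at 4 h on the log2 scale. In WT cells it was -0.24 to 0.26 at 0 h, -0.11 to 0.39 at 1 h and -0.18 to 0.33 at 4 h. For Pcdhga6, the lowest, the interval in LiTEC cells at 0 h ran from -1.61 to 0.70, so only large changes of this gene could have been seen.

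The members with the smallest p were these. Pcdhga12 in LiTEC cells at 0 h was at 8.56, 11.0 and 16.8 CPM in lit libraries and 13.0, 16.4 and 15.9 CPM in dark libraries, a log2 fold change of -0.32 ± 0.15 (edgeR adjusted p = 0.456). Its lit libraries were spread below and above the dark ones, and without replicate 3 of the lit group the value was -0.63 (edgeR adjusted p = 0.0373). That fit kept replicate 1 of the lit group, the library rich in Gm26917. Of the 6 fits that each left out 1 library here, only that fit called a member, so none was called without replicate 1. Pcdhgc5 in WT cells at 0 h was at 3.12, 5.36 and 4.60 CPM in lit libraries and 2.70, 3.24 and 2.62 CPM in dark libraries, a log2 fold change of 0.59 ± 0.22 (adjusted p = 0.162). Pcdhga9 in WT cells at 0 h was at 2.54, 2.18 and 2.95 CPM in lit libraries and 0.917, 1.57 and 2.12 CPM in dark libraries, with 0.76 ± 0.29 (adjusted p = 0.184). Its groups did not overlap, as for 7.71% of all tested genes with lit WT libraries higher.

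Whether light acted differently in LiTEC and WT cells was tested as an interaction at each time, and 0 members were called by edgeR or DESeq2 at 0, 1 or 4 h (0.022%, 0.0% and 0.0% of all genes by edgeR). At an unadjusted p below 0.05 there were 4, 1 and 0 members, and 1129, 378 and 657 genes. At 0 h the smallest p was that of Pcdhgc5, with an interaction of -0.87 ± 0.30 on the log2 scale (edgeR adjusted p = 0.68).

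**Figure D4:**
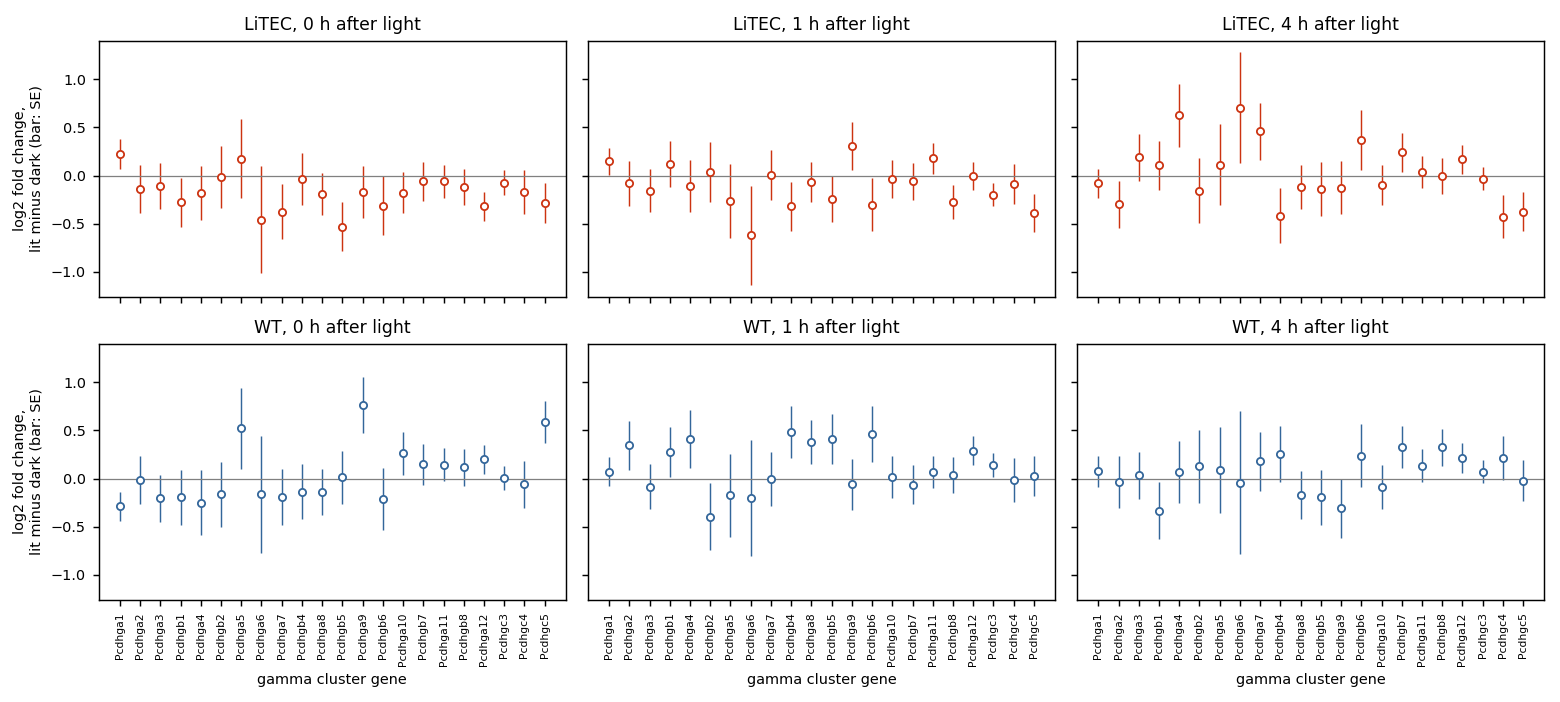
Log2 fold change of lit over dark libraries with its SE for the 22 gamma genes in chromosomal order, in LiTEC cells (top) and WT cells (bottom) at 0, 1 and 4 h after light, 3 libraries a group; open symbols mark that no value had an edgeR adjusted p below 0.05. In LiTEC cells 2 of 22 values are above 0 at 0 h, 6 at 1 h and 10 at 4 h; in WT cells 10, 14 and 14 are.

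The third comparison asks whether levels moved over the 0, 1 and 4 h of sampling without light. In dark LiTEC cells 2 of 22 gamma genes were called over time, where 5.63% of all tested genes were, and in dark WT cells 1 of 22, where 10.2% were. These shares are near or below the background.

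Pcdhga4 in dark LiTEC cells was at 1.42, 1.98 and 2.31 CPM at 0 h, at 1.98, 1.75 and 2.23 CPM at 1 h and at 0.697, 0.697 and 0.890 CPM at 4 h. Its log2 change from 0 h to 4 h was -1.31 (edgeR F test over the 3 times, adjusted p = 0.00747). Pcdhgb5 was at 4.13, 4.77 and 4.62 CPM at 0 h, at 4.19, 4.56 and 6.28 CPM at 1 h and at 2.21, 1.98 and 3.41 CPM at 4 h, a log2 change of -0.85 at 4 h (adjusted p = 0.0315). At 4 h Pcdhga4 stood at 0.761 ± 0.111 CPM in dark LiTEC cells and 0.942 ± 0.0626 CPM in dark WT cells (SD, n = 3 each). Its highest LiTEC library, at 0.890 CPM, was close to its lowest WT library, at 0.899 CPM. Pcdhgb5 stood at 2.53 ± 0.77 CPM in dark LiTEC cells and 2.47 ± 0.595 CPM in dark WT cells at that time, and its libraries overlap. The genotypes were not tested at single times.

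Pcdhga9 was called in dark WT cells, at 0.917, 1.57 and 2.12 CPM at 0 h, 2.62, 2.59 and 3.69 CPM at 1 h and 2.34, 1.69 and 1.67 CPM at 4 h (edgeR F test, adjusted p = 0.0486). Its log2 change from 0 h to 1 h was 0.97. The calls over time rest on few libraries: both genes of LiTEC cells lost their call without replicate 2 of the 4 h group, Pcdhgb5 also without replicate 1 or 3 of the 1 h group or replicate 1 of the 4 h group, and Pcdhga9 lost it without replicate 1 or 2 of 0 h, 1 or 3 of 1 h, or 2 or 3 of 4 h. All 3 calls were also lost with no batch term (adjusted p 0.0582 for Pcdhga4, 0.148 for Pcdhgb5 and 0.13 for Pcdhga9) and in batch 2 alone, by edgeR.

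**Figure D5:**
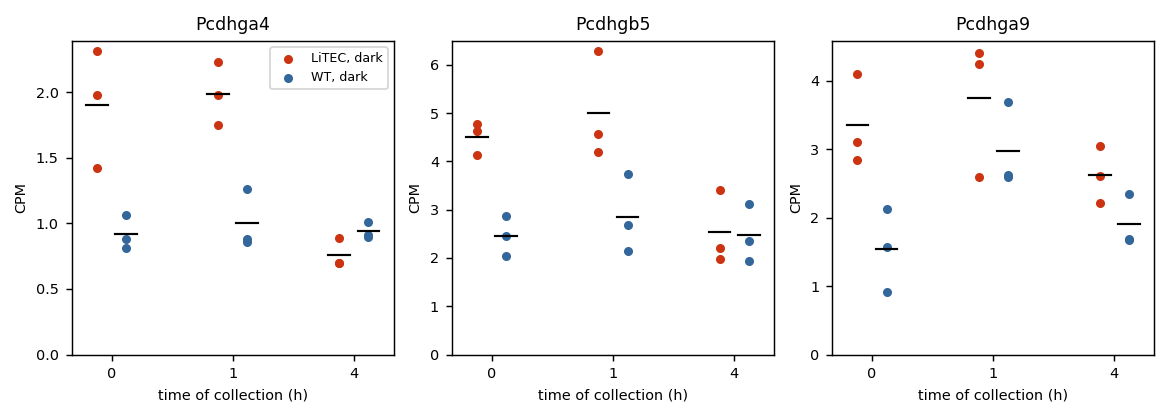
CPM of Pcdhga4, Pcdhgb5 and Pcdhga9 in dark libraries at 0, 1 and 4 h, LiTEC left of WT at each time; points are libraries and lines are means of 3. In LiTEC cells Pcdhga4 and Pcdhgb5 have their lowest means at 4 h, and in WT cells Pcdhga9 has its highest mean at 1 h.

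Batch was also a source of difference within the array. Levels in batch 2 were higher than in batch 1 for 10 of 22 gamma genes and lower for 0, where 40.5% of all tested genes were called in either direction and 20.4% were called higher. The called genes were Pcdhga8 (0.60 ± 0.10, edgeR adjusted p = 1.13e-05), Pcdhga5 (0.54 ± 0.19), Pcdhga4 (0.50 ± 0.14), Pcdhgb1 (0.48 ± 0.12), Pcdhga7 (0.40 ± 0.13), Pcdhgb5 (0.38 ± 0.12), Pcdhgb4 (0.33 ± 0.12), Pcdhga2 (0.32 ± 0.11), Pcdhgc3 (0.26 ± 0.05, adjusted p = 0.000164) and Pcdhga1 (0.19 ± 0.07), as log2 fold changes of batch 2 over batch 1. Pcdhgc3, uncalled between genotypes, is among them. Each group holds libraries of both batches, so batch and group can be told apart. Batch is a term of the fit that gave the results above, but not of some of the other settings tried.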

How the data were processed

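RNA was measured in 36 libraries made with a stranded mRNA kit, per the labels' protocols. The authors deposited 1 table of raw counts, genes by libraries; FastQC, featureCounts and the build mm10 (GRCm38) are named per the submitters' processing notes. Not given in the sources used here: the aligner, the strand setting of the counting, and how multi-mapped reads were handled. All 54842 genes had a symbol in the deposited map. Coordinates and exon lengths are from GENCODE M21 (GRCm38), which held all 58 clustered protocadherins.

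Genes were kept with filterByExpr (minimum count 10 over the 12 groups), leaving 18193, scaled by TMM and fitted together with a mean per group and a batch term (edgeR 4.0.16 glmQLFit and glmQLFTest, limma 3.58.1, R 4.3.3; 23 residual degrees of freedom). Adjustment was by the Benjamini-Hochberg method across these 18193 genes, and a gene is called at an adjusted p below 0.05. SE is the log2 fold change divided by the square root of F. CPM uses TMM-scaled totals. Genotypes were compared as the mean over the 3 times. Intervals cover the spread between libraries; floors of 3 counts cover counting error only.

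Gene members and lists were chosen with earlier results of these data known. The rule for naming took every called member, the 3 highest members of each cluster per kb, up to 6 called genes of a list and 10 fixed genes; some called list genes are counted and not named. The alternatives tried were DESeq2 1.42.0, RLE size factors, batch 2 alone, a replicate block, no expression filter, no batch term, a fit of the compared groups only, and leaving out each library in turn. The test of the change of the genotype difference with light was added after the data were seen.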

Additional observations from a re-analysis of the deposited data

How the results depend on the processing

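The count of gamma genes called higher in dark LiTEC cells was 17, and 14 to 19 under the alternatives: 19 with a replicate block, 16 with no batch term, 14 in batch 2 alone, 17 with RLE size factors, 16 with no expression filter, 17 in the compared groups only and 17 with DESeq2, and 14 to 18 when each library was left out in turn. After light the count was 10, and 12, 9, 7, 10, 11, 10 and 10 in the same order, with 7 to 13 when each library was left out. Over all tested genes the dark count in either direction was 8655, and it ran from 7020 in batch 2 alone to 9303 with a replicate block. After light it was 7894, and it ran from 6004 to 8607 in the same 2 settings. The replicate block added Pcdhga6 and Pcdhga7 to the calls in both comparisons. No fold change of a called member changed sign in any of these. With no filter all 58 members were tested, and no alpha or beta gene was called in any comparison. The called members over time in dark LiTEC cells numbered 2, but 4 with a replicate block, 0 with no batch term and 0 in batch 2 alone. They numbered 0 to 2 when each library was left out. The calls among all tested genes moved too: 1024, but 1819 with a replicate block, 378 with no batch term and 217 in batch 2 alone. They numbered 512 to 951 when each library was left out. Called members in dark WT cells numbered 1, but 0 with no batch term, 0 in batch 2 alone and 0 in the compared groups only. They numbered 0 to 1 when each library was left out. Among all tested genes there were 1857 calls, but 806, 604 and 392 in these 3 settings, and 890 to 1918 when each library was left out. Light in LiTEC cells at 0 h gave 0 to 1 called members when each library was left out, with 38 to 126 calls among all tested genes. Every other light and interaction comparison gave 0 called members under each alternative. The batch count of 10 ran from 8 to 12, and that of all tested genes, 7361, from 6963 to 7906. The cause of these changes was not tested; batch 2 alone has fewer libraries. The replicate numbers were checked as a pairing. Deviations of libraries with the same number correlated at 0.364 or more for replicate 1 (median 0.619), 0.389 or more for replicate 2 (median 0.498) and 0.0962 or more for replicate 3 (median 0.438). The median between replicate 2 and replicate 3 of other groups was 0.0585, and 36 of 36 libraries correlated best with their own number. Not every pair passed 0.1, so the block was kept as an alternative and not as the basis of the results. The batch term takes up the difference of replicate 1 from the others. It does not take up that between replicates 2 and 3, which stays in the spread of those results. The test of genotype differences with light has no fit in the compared groups only, since it uses all 36 libraries. Low counts limit the alpha and beta genes, where 3 counts over 36 libraries correspond to 0.00497 CPM.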
